A study of Mus musculus with 10 samples.

Results

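The 5 libraries described here are those of the water-gavaged mice, labelled Control 1 to 5 and called water 1 to water 5, out of 10 libraries in the series. They were chosen by label alone, and the other 5 libraries, from mice given taurodeoxycholic acid, were not analysed here except that the authors' scaling used all 10. The animals were male C57BL/6J mice of wild-type genotype made obese by diet (DIO), 10 weeks old when gavage began, and they received water by mouth for 4 weeks before the distal ileum was taken and frozen. Each library came from total RNA of about 20 mg of tissue, depleted of cytosolic ribosomal RNA. No lean or ungavaged mice were part of the series, so the values describe the distal ileum of obese mice under a vehicle gavage and not a healthy reference. With 1 group there is no contrast to test, and every error below is the spread between 5 libraries, taken as 1 mouse each, which the labels imply by number but do not state.

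The distal ileum is the last stretch of the small intestine. Its villi are covered by enterocytes, which digest peptides and sugars at the brush border, take up fatty acids and cholesterol and pack them into chylomicrons, and recover conjugated bile acids through the transporter ASBT (Slc10a2), the cytosolic carrier Fabp6 and the export pair Slc51a and Slc51b. Goblet cells secrete mucus, Paneth cells at the crypt base secrete α-defensins and lysozyme, and crypt stem cells renew all of them. Below the epithelium lie fibroblasts, immune cells and lymphoid follicles, layers of smooth muscle with nerves and pacemaker cells, and an outer mesothelium. A piece of whole ileum holds RNA of all these layers.

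The libraries held 27349003 to 44342245 reads on genes, and 26092 to 27954 genes had at least 1 read in a library. Where a library shows 0 reads of a gene, as many as 3 cannot be told from 0, or 2.60 to 3.60 normalized counts. There were 17203 genes with at least 10 normalized counts in at least 3 of the 5 libraries, of which 14091 were nuclear protein-coding genes. Spearman correlations between pairs of libraries, taken across genes, which are not independent replicates, were 0.952 to 0.976. The male label held in all 5, with Ddx3y, a gene of the Y chromosome, at 1407 to 1923 normalized counts and Xist, which coats the inactive X chromosome of females, at 4.3 to 14.4. The defining enterocyte genes of the ileum were high in all 5, Fabp6 at 43004 to 105767 and Slc10a2 at 11827 to 34722 normalized counts.

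Mitochondrial genes took 45.6% ± 7.74 of all reads on genes and nuclear genes 54.4% ± 7.74 (SD, n = 5 each). The 2 mitochondrial ribosomal RNAs, mt-Rnr2 and mt-Rnr1, which the depletion of cytosolic ribosomal RNA left in, took 48.1%, 45.4%, 30.2%, 47.5% and 45.8% of all reads on genes in water 1 to water 5, or 43.4% ± 7.45 (SD, n = 5). Water 3 lay apart at 30.2%, with an exact 95% Clopper-Pearson interval of 30.21 to 30.25%, which covers counting error only. The other 4 libraries lay within 45.4 to 48.1%. Per base of transcript the pair were equal to within a few percent in every library, the ratio of mt-Rnr2 to mt-Rnr1 being 1.01, 1.01, 1.02, 0.976 and 1.02.

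**Figure D1:**
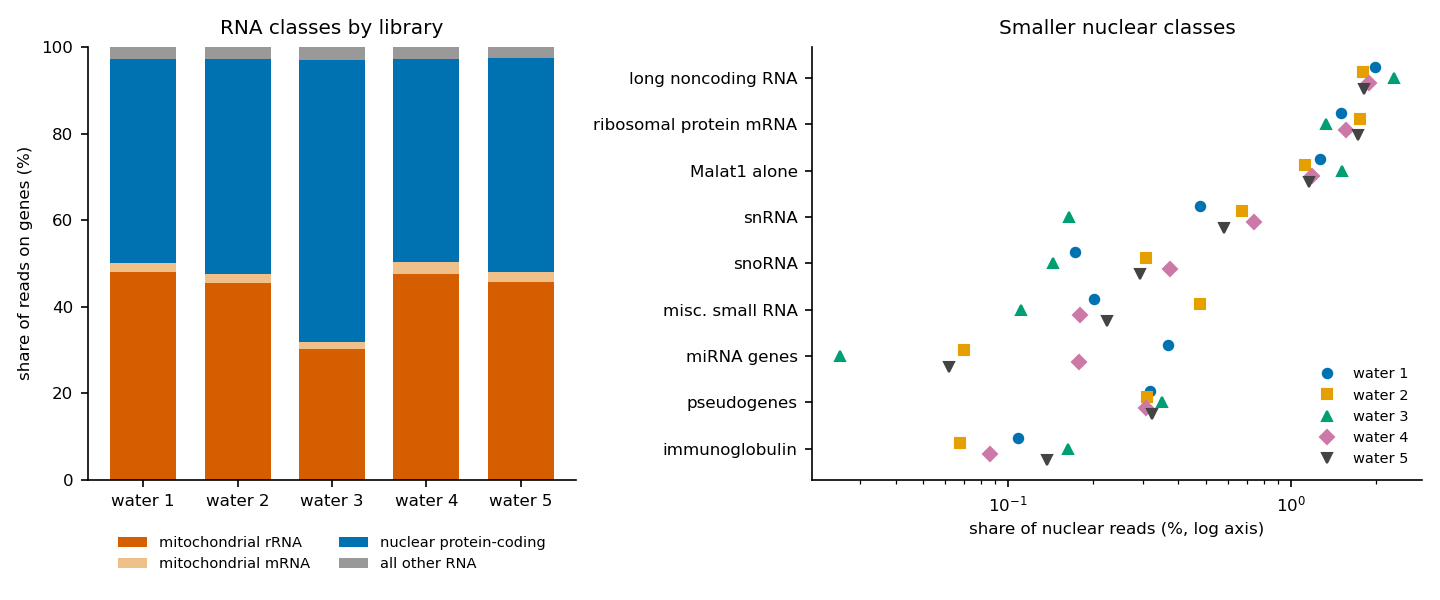
Left, share of reads on genes (percent) by RNA class in each of the 5 water libraries, as stacked bars. Right, the share of nuclear reads (percent, log axis) taken by smaller nuclear classes, 1 point per library. Mitochondrial rRNA took 30.2% of reads in water 3 and 45.4 to 48.1% in the other 4, and miRNA genes spread most of the small classes, over 0.0254 to 0.368% of nuclear reads.

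The 13 mitochondrial messenger RNAs, which encode subunits of the respiratory chain and of ATP synthase, took a further 1.98%, 2.07%, 1.64%, 2.72% and 2.32% of reads, or 2.15% ± 0.403 (SD, n = 5). All 12 whose mean reached 50 normalized counts were highest in water 4 and lowest in water 3. Their levels per length, in RPKM (reads divided by exon length and by all reads on genes of the library), were far from even although they are copied from 1 circular genome. The cytochrome oxidase gene mt-Co1 stood at 6854 ± 1256 (SD, n = 5), mt-Cytb at 2510.4 ± 481, mt-Nd6, the only one read from the other strand, at 2245 ± 723 and mt-Nd1 at 2154 ± 444. Below them mt-Nd5 stood at 1512 ± 249.7, mt-Nd2 at 1019 ± 184, mt-Nd4 at 648 ± 143 and mt-Nd3 at 162 ± 24.1. At the low end mt-Atp6 had 12.4 ± 3.01, mt-Co2 9.61 ± 1.81, mt-Co3 8.43 ± 2.05, mt-Atp8 6.84 ± 1.95 and mt-Nd4l 2.36 ± 0.837.

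A measured fact stands beside that order. Of all stretches of 50 bases in the transcripts of mt-Co2, mt-Co3, mt-Atp6, mt-Nd4l and mt-Nd3, 98.0 to 100% also occur in an annotated nuclear transcript, against 62.2% for mt-Nd4, 51.1% for mt-Co1, 8.19% for mt-Nd2, 7.61% for mt-Nd5, and 0% for mt-Cytb, mt-Nd1, mt-Nd6 and mt-Atp8. How the authors' counting treated reads that fit several genes was not given in the sources used here, and the part of these shared stretches in the low values was not tested. mt-Atp8 was also low with no such stretch. For mt-Atp6, mt-Co3, mt-Co2 and mt-Nd4l, the nuclear gene sharing the most stretches had a mean of similar size. Gm10925, which shares sequence with mt-Atp6, had a mean of 427 normalized counts, against 329 for mt-Atp6. Gm28437 had 244.5, against 255 for mt-Co3, Gm28661 had 207, against 254 for mt-Co2, and Gm10222 had 47.1, against 26.9 for mt-Nd4l. Other pairs lay far apart. Gm28438 had 44.0, against 2176 for mt-Nd3, which shares nearly all its stretches. Gm28439 had 128, against 34573 for mt-Nd4, and Gm29216 had 354, against 407574.5 for mt-Co1.

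By reads, most of the nuclear RNA was messenger RNA. Protein-coding genes held 94.3%, 94.8%, 95.6%, 94.5% and 95.2% of nuclear reads, or 94.9% ± 0.538 (SD, n = 5). This rests on the scale, since per exon length they held 72.6% ± 6.67. Long noncoding RNA held 1.96% ± 0.215, most of it 1 gene, Malat1, a nuclear-retained RNA of nearly all cells, with 1.25% ± 0.156. The 81 cytosolic ribosomal protein genes together held 1.58% ± 0.175 of nuclear reads. Pseudogenes held 0.321% ± 0.0171 and immunoglobulin segments 0.112% ± 0.0383.

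Small RNAs varied most among the larger nuclear classes. Short structural and regulatory RNA genes took 1.29%, 1.62%, 0.491%, 1.56% and 1.24% of nuclear reads, with water 3 again lowest. Small nuclear RNA genes took 0.478%, 0.669%, 0.164%, 0.742% and 0.578%, and the minor-spliceosome RNA Rnu12 led them with 103248, 126211, 30200.4, 142912 and 110402 normalized counts. The signal at miRNA genes, 0.368% in water 1 against 0.0254% in water 3, spanned 14.5-fold. Reads named Rn18s-rs5, a gene that resembles the cytosolic 18S ribosomal RNA, reached 243414, 111792, 62117, 156140.5 and 101317 normalized counts. Water 1 was highest and water 3 lowest for it. 7SK, a regulator of transcription elongation, had 52664, 63683, 36894, 38506 and 51345 normalized counts, and Rny1, a small RNA bound by the Ro protein, 25337, 55594, 12460.0, 20154 and 26326. How well such short transcripts are captured by the library kit was not tested.

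By share of all reads, mt-Rnr2 held 27.1% ± 4.59, mt-Rnr1 16.3% ± 2.87 and mt-Co1 1.06% ± 0.194 (SD, n = 5 each). The largest nuclear shares went to long or very abundant transcripts. Apob, the scaffold protein of chylomicrons, held 0.742% of all reads, followed by Malat1 at 0.688%, Fabp2, the intestinal fatty acid binding protein, at 0.679%, and Apoa1, the main protein of high-density lipoprotein, at 0.607%. The brush-border glucosidases Mgam and Sis held 0.458% and 0.383%, and Fcgbp, a mucus protein of goblet cells, 0.423%.

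By reads, the nuclear budget was spread over many genes. It took 578, 671, 687, 656 and 707 genes to hold 50% of nuclear reads in water 1 to water 5, or 660 ± 49.5 (SD, n = 5), and water 1 was the most concentrated. Per exon length 147 ± 81.9 genes held 50%. The top 10 genes of each library held 9.41% ± 0.644 of its nuclear reads, the top 100 held 26.7% ± 0.756 and the top 1000 held 57.3% ± 1.30.

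Per length, the fatty acid, lipoprotein and bile acid machinery of enterocytes came out on top among nuclear protein-coding genes. Short noncoding RNAs were not ranked with them. One such RNA, Rnu12, had a mean of 102595 normalized counts on 151 exon bases, against 263927 on 965 for Fabp2. Levels per length are given in TPM, reads divided by exon length and scaled to 1 fixed total over nuclear protein-coding genes. Fabp2 stood at 50728 ± 17009, Apoa1 at 34911 ± 6073 and Fabp6, the cytosolic bile acid binding protein that marks the ileum, at 29317 ± 9852 (SD, n = 5 each). The next gene was Muc3, a membrane mucin, at 11786 ± 3099. Its highest library, water 2 (16009), just passed the lowest of Fabp6, water 1 (15449), which is a different library. The annotated exons of Muc3 cover only 1943 bases, and its level per length rests on that model. Then came Actb at 8336 ± 883, Selenop, a secreted selenium carrier, at 8251 ± 1235, and the lipoprotein gene Apoa4 at 7346 ± 1838.

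Further down, the keratins Krt8 and Krt20 stood at 6014 ± 499 and 6012 ± 1329.8. The goblet cell lectin Zg16 had 5990.0 ± 1514 and the aminopeptidase Anpep 5288 ± 401. The order of these neighbours within single libraries was not tested. The goblet cell peptide Tff3 had 5109 ± 1056, Clca4b 5056 ± 389, the peptidase-like Naaladl1 4919 ± 1156, the adhesion protein Epcam 4856 ± 1118, Clec2h 4158 ± 556 and the glucosidase Mgam 3715 ± 489.8. The α-defensins Defa22 and Defa21 had 4818 ± 1354 and 4024 ± 1212. They belong to a family of near-identical genes, so reads could be split between copies and each single value is uncertain. The antimicrobial lectin Reg3b, at 5678 ± 5373, was the only one of the top 20 whose SD came near its mean.

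**Figure D2:**
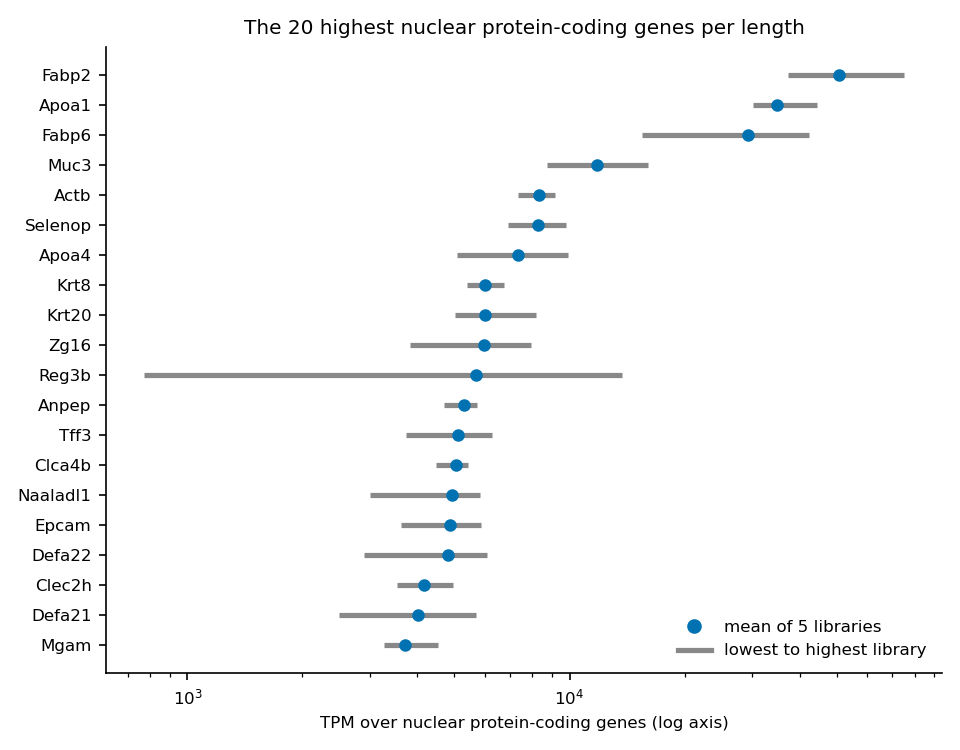
The 20 nuclear protein-coding genes with the highest mean level per length (TPM over nuclear protein-coding genes, log axis) in the 5 water libraries. Points are means and bars run from the lowest to the highest library. Fabp2, Apoa1 and Fabp6 lead, and Reg3b has the widest bar on this scale. The lowest library of Fabp6 (water 1) just overlaps the highest of Muc3 (water 2), which is a different library.

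Most genes varied little between the 5 mice. Among 13119 genes whose mean normalized count was at least 50, the median SD of log2(normalized count + 1) was 0.24, where counting error alone gives 0.07, and the median coefficient of variation was 16.6%. In 1970 genes (15%) the highest library was under 1.25 times the lowest. In 484 genes, 3.69% of those examined, it was at least 4 times the lowest on the count + 1 scale, and in 122 at least 10 times. Without each library in turn the number of 4-fold genes was 352 to 416. Near that limit, Epb41l3 and Car12 lay just under it, at 3.999 and 3.998, and Stk26 just over it, at 4.004. The edgeR common biological coefficient of variation over the 5 libraries was 25.8%, and the median of the gene-wise values was 20.9%. Both were fitted to 12905 genes with a mean of at least 50 recovered reads, a slightly different set.

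The spread was smallest at middling levels. The median SD was 0.34 for genes with means of 50 to 200 normalized counts, 0.21 for 200 to 1000, 0.19 for 1000 to 5000, 0.23 for 5000 to 20000, and 0.29 above 20000. The 103 genes of the top range include secreted and digestive products of the epithelium described below.

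**Figure D3:**
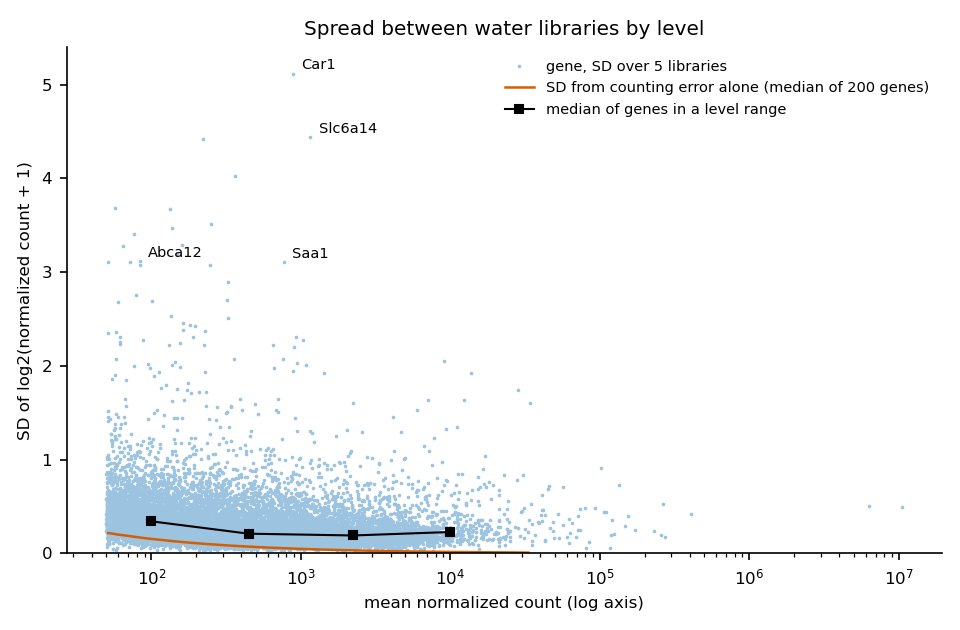
Standard deviation of log2(normalized count + 1) over the 5 water libraries against mean normalized count (log axis), 1 point per gene with a mean of at least 50. Black squares are medians of level ranges and the orange line is the spread that counting error alone gives. The medians run between 0.19 and 0.34, and Car1, Slc6a14, Abca12 and Saa1 are named among the genes far above them.

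The steadiest genes included ones that most cell types use. Gatad2b, a part of the NuRD chromatin complex, had 1733, 1747, 1746, 1746 and 1712 normalized counts in water 1 to water 5, an SD of 0.01 on the log2 scale. Tcf12, a transcription factor, had 1921, 1874, 1926, 1886 and 1919, and Lamp1, a lysosomal membrane protein, 7690.0, 7618, 7723, 7885 and 7557. No 2 of these libraries differ by more than a few percent in any of the 3 genes. Numa1, Tubb4b, Gsk3a, Itga3, Cir1, Atp5o, Senp1, Aldh2 and Ech1 were among the other 12 steadiest, with SDs of 0.03 to 0.04. Counting error alone gives a median SD of 0.036 at means of 1000 to 5000 normalized counts. Gatad2b (0.012) and Tcf12 (0.018) lay below that. Genes picked as the smallest SDs of many look steadier than they are, so their rank is uncertain. As a group, the nuclear genes of the respiratory chain were steady. Their median SD was 0.15, against 0.24 over all genes examined and 0.19 in the level range with the smallest median. None of 28 had a 4-fold range, which is near the background of 3.69% and is not counted as steadiness. The group held 0.593% ± 0.0146 of nuclear reads. Cox4i1 had 6689, 6378, 6699, 6731 and 6386 normalized counts, with little difference between libraries although the mitochondrial rRNA of water 3 was low.

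In the gene groups that follow, a share is a percentage of nuclear reads, and members are counted if their mean was at least 50 normalized counts. With 3.69% of all genes examined over a 4-fold range, a count of 0 in a short list is near that background and is no sign of steadiness. Counts of members highest or lowest in 1 library are descriptions, because the same counts over all genes examined were not made. Of 775 entries of all lists, 226, 197, 151, 84 and 117 were highest in water 1 to water 5. As shares of nuclear reads these were 147, 230, 166, 94 and 138. A lower share can mean fewer cells of a type or less RNA per cell, which cannot be told apart in whole tissue.

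Enterocyte digestion and transport made up the largest described block. The 32 brush-border genes held 6.48%, 6.26%, 5.92%, 5.96% and 5.83%, or 6.09% ± 0.273 (SD, n = 5). A 4-fold range was found in 1 of 31 members (3.23%), near the 3.69% of all genes examined. The median SD was 0.25, against 0.24 over all genes examined. Anpep, a peptidase, had 112953, 119123, 122351, 111466 and 114977 normalized counts and Clca4b, of a family of chloride channel regulators, 77978, 83249.5, 80025, 76776 and 84495, both within a narrow band. Alpi, intestinal alkaline phosphatase, was nearly as even, at 10927 to 12895. The member that varied most was Slc2a2, the glucose transporter GLUT2 of the basal membrane, at 3808, 799, 890.5, 1119 and 846 normalized counts, high in water 1 and close together in the other 4.

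Lipid handling was the next block and less even. Apolipoprotein and chylomicron genes held 3.12% ± 0.321, led by Apoa1 with 232224, 238347, 193519.7, 290295 and 194101 normalized counts and Apob with 225873, 269400.5, 315616, 281747 and 275740.2. Apoc3, which slows the clearance of triglyceride-rich particles, ranged most of this group, with 2781, 581, 862, 2056 and 825. It was highest in water 1 and water 4 and low in the others. Fatty acid uptake and triglyceride synthesis genes held 2.4%, 1.36%, 1.28%, 1.97% and 1.25%. Fabp2 had 421059, 205425, 185567, 316030.0 and 191556 normalized counts, and Fabp1, the liver-type fatty acid binding protein, had 31251, 2479, 7098, 9516 and 4814. In both genes water 1 and water 4 were the highest libraries.

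Genes of sterol transport and synthesis took smaller shares. The sterol uptake and efflux genes held 0.17% ± 0.0262 and cholesterol synthesis genes 0.189% ± 0.0294, with 0 of 8 and 0 of 16 members over a 4-fold range. Npc1l1, the entry route of dietary cholesterol, had 17458, 14052, 18656, 16058 and 14582 normalized counts. Hmgcs1, an early enzyme of cholesterol synthesis, had 9115, 9336, 11704, 7702 and 10547. Of the 16 synthesis genes, 10 were highest in water 3 (10 with TMM scaling, 11 as shares of nuclear reads). Among fatty acid oxidation genes, 0 of 20 had a 4-fold range.

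The bile acid transport genes that define the ileum were high in every mouse but not even. The group held 0.417%, 0.875%, 0.687%, 0.542% and 0.77% of nuclear reads, none of 11 members had a 4-fold range, and the median SD of 0.51 was above the 0.24 of all genes examined. Fabp6 had 43004, 105767, 81135, 65944 and 73961 normalized counts in water 1 to water 5, lowest in water 1. Slc10a2, which carries conjugated bile acids into the cell, had 11827, 28744, 16212, 13860.4 and 34722, low in water 1 and water 4 and highest in water 5. Slc51a and Slc51b, the basolateral export pair, had 5319, 9306, 8615, 5295 and 9796 and 3226, 5763, 4954, 3377 and 5673, both low in water 1 and water 4. Nr1h4, which encodes the bile acid receptor FXR, had 2597, 4458, 4734, 1989 and 5050.5. Its target Fgf15, the hormone that tells the liver to make less bile acid, had 609, 1285, 1099, 1648 and 763, highest in water 4. Gpbar1, the membrane bile acid receptor TGR5, was at or near the floor of 3 reads in water 1 to water 3, at 1.2, 3.36, 4.3, 11.9 and 6.94.

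Position genes of the gut varied in the same libraries. Lct, the lactase of the proximal and middle small intestine, had 21207, 976, 4881, 16846 and 1263 normalized counts, so water 1 and water 4 were far above the others, water 3 lay between, and water 2 and water 5 were low. Gata4, a transcription factor of duodenum and jejunum that in mouse is known to activate Lct and to repress Fabp6 and Slc10a2 there, had 637, 62.8, 174, 389.6 and 82.5, with the libraries in the same order as for Lct. Hoxb6 and Hoxb9, homeobox genes that mark more posterior gut, had 115, 435, 537, 154 and 364 and 64.9, 225, 319, 50.2 and 264 normalized counts. Both were low in water 1 and water 4. Cdx2, which holds intestinal identity along the whole bowel, was much more even, at 2631, 2239, 3492, 2841 and 2535. Of the 12 homeobox and position genes, 5 had a 4-fold range, and 2 when water 1 was left out. The list of 12 duodenum and jejunum genes held 2.01%, 1.07%, 0.972%, 1.68% and 0.985% in water 1 to water 5. In it 6 genes reached a mean of 50 normalized counts, and 1 of these 6 had a 4-fold range. Among the 6, 4 were highest in water 1, 1 in water 2 and 1 in water 5. Where along the distal ileum each piece was cut was not given in the sources used here, and its part in these values was not tested.

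The promoters of Lct and Fabp6 are shown because Fabp6 was lowest in the 2 libraries in which Lct was highest, and Gata4 had the same order as Lct. Both were matched by symbol in RefSeq (build GRCm38.p6, not the authors' build), each as 250 bases before to 50 after the start site, read 5′ to 3′ on the gene's own strand. Lct lies on the minus strand at chr1:128328269-128328568 and Fabp6 on the minus strand at chr11:43601513-43601812. Capitals mark AGATAA, a sequence that GATA factors bind, and its reverse complement TTATCT.
Lct: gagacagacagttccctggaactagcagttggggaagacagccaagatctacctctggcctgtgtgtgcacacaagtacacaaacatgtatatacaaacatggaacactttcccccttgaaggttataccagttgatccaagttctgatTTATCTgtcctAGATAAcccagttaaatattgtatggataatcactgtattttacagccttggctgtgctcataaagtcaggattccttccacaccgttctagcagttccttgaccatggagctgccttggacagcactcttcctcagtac
Fabp6: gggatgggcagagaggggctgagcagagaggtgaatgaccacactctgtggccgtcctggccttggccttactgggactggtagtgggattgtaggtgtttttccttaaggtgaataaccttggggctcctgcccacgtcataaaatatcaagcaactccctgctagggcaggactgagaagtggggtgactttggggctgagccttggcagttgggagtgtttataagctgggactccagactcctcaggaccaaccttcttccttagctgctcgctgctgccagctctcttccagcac
The search covered AGATAA and TGATAA on both strands. The Lct window held AGATAA once on each strand, and the Fabp6 window held neither motif. Among 32851 promoters of the same length, 11.2% held AGATAA, 9.05% TGATAA and 18.6% at least 1 of them. A match describes letters and not a bound site.

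**Figure D4:**
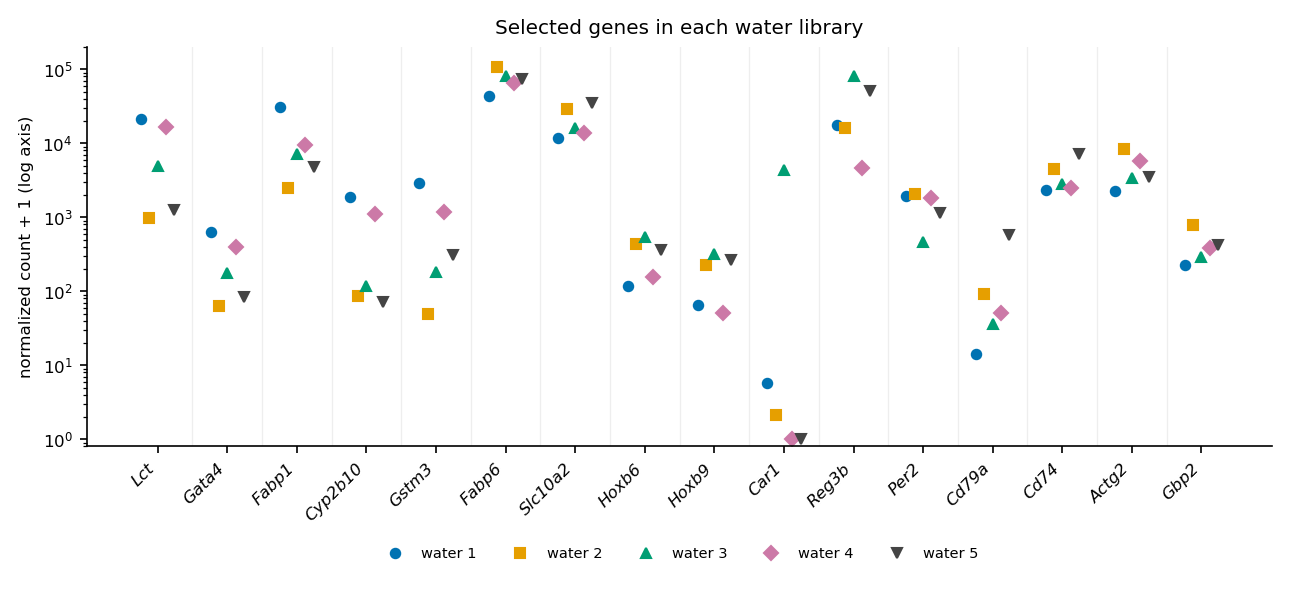
Normalized count + 1 (log axis) of 16 genes in each of the 5 water libraries, 1 symbol per library. Lct, Gata4, Fabp1, Cyp2b10 and Gstm3 are high in water 1 and water 4, Hoxb6 and Hoxb9 are low in the same libraries, Car1 is high in water 3 alone, and Cd79a is highest in water 5.

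Enzymes of drug and toxin handling showed the same libraries on top. The cytochrome P450 genes held 0.534%, 0.346%, 0.364%, 0.469% and 0.333% of nuclear reads, the glutathione S-transferases 0.174%, 0.0831%, 0.0723%, 0.147% and 0.0954% and the carboxylesterases and conjugation enzymes 0.452%, 0.297%, 0.323%, 0.412% and 0.324%. Water 1 was the highest library for 15 of 20, 12 of 19 and 16 of 21 members (12, 11 and 14 as shares of nuclear reads). For the redox genes linked to the regulator NRF2 it was highest for 15 of 21, and for 11 as shares of nuclear reads. A 4-fold range was found in 5 of 20, 6 of 19, 5 of 21 and 3 of 21 members, and in 4, 3, 2 and 2 without water 1, beside 3.69% of all genes examined.

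Single enzymes spanned wide ranges. Cyp2b10, a classic target of the xenobiotic receptor CAR, had 1866, 85.2, 116, 1111 and 70.3 normalized counts, and Nr1i3, which encodes CAR, 1028, 152, 136, 607 and 86.8. In both, water 1 and water 4 were far above the other 3 libraries. Gstm3, a glutathione S-transferase of a family of similar copies, had 2932, 48.2, 180.5, 1193 and 312, Ugt2a3, a glucuronosyltransferase, 3217, 104, 247, 1489 and 101, and the carbonyl reductase Cbr3 1781, 86.3, 89.2, 1309 and 533. The most abundant members were steadier. Cyp4f14, which oxidises fatty acids and leukotrienes, had 29742, 21892, 22958, 25817 and 20309, and the carboxylesterase Ces2e 22459, 19794, 21217, 22338 and 20499. Mgst3 had 1873, 1870.1, 1766, 2120.1 and 1966.

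Mucus was a further large product. Goblet cell and mucus genes held 2.27%, 2.45%, 3.54%, 1.8% and 2.46%, with water 3 highest and water 4 lowest. In 11 of 13 members water 4 was the lowest library under the authors' scaling, TMM and shares of nuclear reads alike, and 0 of 13 had a 4-fold range. Muc2, the gel-forming mucin, had 91379.5, 72825, 150724, 61822 and 87734 normalized counts, Fcgbp, which is secreted with it, 155619, 113232, 223344, 117009 and 159691, and Zg16, a lectin that keeps Gram-positive bacteria at a distance, 48693, 38390.2, 51564, 25285 and 36854. Clca1, a mucus-processing protease, had 52466, 51407, 72686, 32478 and 54471. Muc3, a membrane mucin of the enterocyte surface that the list also holds, had 116314, 161692, 141049, 89592 and 98973, highest in water 2.

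Paneth cell products held 0.264% ± 0.0341 of nuclear reads, and 2 of 16 members had a 4-fold range (0 without water 5). Lyz1, lysozyme, was even at 17410.1, 17982, 12349, 15259 and 16773 normalized counts. Of the α-defensins, Defa22 and Defa21 had 9623, 12708, 6272, 13467 and 11545 and 8073, 8923, 5384, 12573 and 9750.3, highest in water 4, while Defa24 had 6752, 5711, 7133, 4152 and 6239.6, lowest in water 4. Reads of such near-identical genes may be split between copies, so this opposite order is uncertain.

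The Reg lectins and other microbe-induced genes varied widely in their summed share, at 0.323%, 0.218%, 0.715%, 0.107% and 0.55% of nuclear reads. Reg3b, which binds bacterial surfaces, had 17385, 16222, 81083, 4634 and 50487 normalized counts, and Reg3g, which acts on Gram-positive bacteria, 3144, 3169.6, 18627, 982 and 9428. In both genes water 3 was highest, water 5 next and water 4 lowest. Saa1, an acute-phase protein, had 28.8, 67.3, 3062, 19.1 and 655, in an order that also put water 3 and water 5 on top and water 4 last. Pigr, which carries IgA across the epithelium, had 45130.0, 18594, 33251, 11830.0 and 43308. Reg3a had 1641, 803, 839, 756 and 805, highest in water 1. In 4 of 11 members the range was at least 4-fold, and 4 without any 1 library.

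Rare epithelial cells were measured at low levels. Enteroendocrine genes held 0.0405% ± 0.00448 of nuclear reads, led by neurotensin (Nts, 3725, 3086, 2584, 3038 and 4241 normalized counts). Chga, a granule protein of these cells, had 892, 936, 756, 886 and 727, and Gcg, the source of GLP-1, 279, 318, 241, 116 and 262. Gip, a hormone made mainly in the upper small intestine, was the 1 of 14 with a 4-fold range, at 376, 66.2, 129, 172 and 91.1, highest in water 1. Tuft cell genes held 0.0161% ± 0.00259, with Dclk1 at 292, 315, 417, 281 and 349 and Trpm5, an ion channel of taste-like signalling, at 171, 156, 235, 145 and 198.

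Among crypt genes Lgr5 varied less than Olfm4. Lgr5, the receptor that marks crypt stem cells, had 177, 201, 224, 178 and 145 normalized counts, while Olfm4, a secreted protein of the same cells, had 1497, 2339.9, 1713, 609.5 and 1067, lowest in water 4. Cell-cycle genes held 0.0333% ± 0.00484 of nuclear reads. The proliferation marker Mki67 had 1699.7, 1684, 1819.6, 975 and 1474, and Top2a, which untangles replicated DNA, 1109.9, 1120.1, 1247, 670.4 and 907. Water 4 was the lowest library for 15 of 22 members (14 with TMM, 13 as shares of nuclear reads), and 0 of 22 had a 4-fold range.

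Genes of the muscle wall shifted together between libraries. Smooth muscle genes held 0.585%, 1.89%, 0.883%, 1.62% and 1.05% of nuclear reads, and the median SD of the 22 members was 0.66, against 0.24 for all genes examined. Water 2 was highest in 18 of 22 and water 1 lowest in 21 of 22 (19 and 21 with TMM, 20 and 21 as shares of nuclear reads). Myh11, the smooth muscle myosin, had 28544, 91933, 38197, 78508 and 47742 normalized counts, Acta2, the smooth muscle actin, 5463, 17996, 8728, 11936 and 8467, and the intermediate filament gene Des 3404, 11901, 5484, 13117 and 7119. In all 3, water 2 and water 4 were the highest libraries and water 1 the lowest. A 4-fold range was reached by 1 of 22 members (4.55%), near the 3.69% of all genes examined.

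Other cells of the wall followed in part. Ano1, the channel of the interstitial cells of Cajal that pace the muscle, had 454, 1288, 671, 1017 and 717 normalized counts, and Kit, their growth factor receptor, 514, 935, 671, 783 and 675, lowest in water 1. Fibroblast and matrix genes held 0.103%, 0.253%, 0.16%, 0.201% and 0.157%, with water 2 highest in 16 of 21. Dcn, a collagen-binding proteoglycan, had 1863, 5141, 1329, 3099 and 2464, and Col1a1 501, 1032, 1292, 1065 and 962, which was highest in water 3. The mesothelial marker Upk3b had 234, 1126, 237, 717 and 553 and Msln 121, 491, 83.8, 366 and 224, and all 6 mesothelial genes were highest in water 2. Neuronal genes matched the muscle genes in part. Of 10, 7 were lowest in water 1, but 7 were highest in water 3, among them Tubb3, a neuronal tubulin, with 14.4, 54.9, 108, 66.9 and 30.4. The median SD was 0.25 over 13 blood endothelial genes and 0.38 over 7 lymphatic ones. Pecam1, an adhesion molecule of endothelium, had 362, 423, 336, 332 and 487.

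Fat cell transcripts were present in all 5 pieces at very different levels. Adipocyte genes held 0.0614%, 0.0876%, 0.0396%, 0.0317% and 0.0436%, and 5 of 11 had a 4-fold range. Adipoq, adiponectin, had 613, 831, 241, 108 and 331 normalized counts, Fabp4, the fatty acid binding protein of fat cells and some macrophages and capillaries, 5115, 5924, 1809.9, 1276 and 2414, and Lep, leptin, 319.5, 901, 188, 56.2 and 119. Water 2 was the highest library in all 3 and water 4 the lowest, as for 7 of the 11 genes at each end. Cfd, adipsin, was highest in water 1, at 1064, 839.8, 284, 289 and 686.

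Lymphoid follicle genes separated 1 library from the rest. B cell and follicle genes held 0.00326%, 0.00684%, 0.003%, 0.00551% and 0.0341% of nuclear reads. Of 16 genes, 13 reached a mean of 50 normalized counts, some of them through water 5. These 13 were highest in water 5 under all 3 scalings, and 12 of 13 had a 4-fold range (8 without water 5). Cd79a, a signalling chain of the B cell receptor, had 13.2, 90.8, 35.5, 50.2 and 582 normalized counts, Ms4a1, which encodes CD20, 19.2, 70.6, 9.67, 64.5 and 618, and Cr2, a complement receptor of B cells and follicular dendritic cells, 25.2, 102, 16.1, 95.6 and 891. Cxcr5, the receptor that brings cells into follicles, had 1.2, 50.5, 5.37, 31.1 and 306, and its ligand Cxcl13 12, 51.6, 2.15, 16.7 and 224. Of 59 genes with a mean of at least 50 whose highest library exceeded the next by at least 4-fold, 40 were highest in water 5, some of which reached that mean only through it.

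MHC class II genes were also high in water 5, and class I presentation genes were not set apart there. Of 11 class II genes, 10 reached a mean of 50 normalized counts and were highest in water 5 under all 3 scalings. Some of them reached it through water 5, such as H2-Eb2, whose mean without that library was 26.1. Of 16 class I presentation genes, 5 were highest in water 5 and 6 in water 3. Cd74, the invariant chain that guides class II molecules, had 2332, 4508, 2807, 2498 and 7128 normalized counts, H2-Ab1 1086, 2122, 1594, 1066 and 3029 and H2-Eb2, a related β chain, 8.41, 51.6, 9.67, 34.7 and 280.3. Plasma cell genes were less one-sided, at 0.0815%, 0.0669%, 0.131%, 0.0746% and 0.118%. Jchain, which joins secreted IgA molecules, had 4512, 2610.1, 3822, 3619.9 and 5047, while Igha, the IgA heavy chain, had 5232, 2654, 11515, 4530.5 and 6496, highest in water 3, and Ighm, the IgM heavy chain, 106, 425, 113, 265 and 1552, highest in water 5. T cell genes were low, with Cd3e, part of the T cell receptor complex, at 52.9, 51.6, 47.3, 40.6 and 76.4 and Gzma, a protease of killer cells, at 342, 438, 149, 190.0 and 323. The part of lymphoid tissue in the water 5 values was not tested apart from these markers.

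Interferon-linked genes split by library as well. Of the genes for interferon-γ-induced GTPases and chemokines, 13 of 14 were highest in water 2 under all 3 scalings and 5 of 14 had a 4-fold range (2 without water 1 or without water 2). Gbp2, a GTPase that attacks vacuoles of pathogens, had 226, 775, 288, 381 and 421 normalized counts and Cxcl9, a chemokine for T cells, 38.4, 136, 15, 80.1 and 17.4. Genes of the type I response were highest in water 2 (7 of 16) or water 3 (8 of 16, and 6 with TMM), with Irf7, its amplifying factor, at 879, 1644, 1915, 1195 and 1711. Of 13 macrophage and dendritic cell genes, 8 were highest in water 2, and their median SD was 0.28. Cd163, a scavenger receptor, was the 1 with a 4-fold range, at 249, 516, 128, 312 and 188 normalized counts. C1qa, a complement subunit, had 171, 280.3, 185, 216 and 253 and the cathepsin gene Ctss 3502, 4793, 4627, 3687 and 5195.

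Clock genes were set apart by water 3. Of 19 members, 9 had a 4-fold range, and 1 when water 3 was left out. Per2, a repressor of the molecular clock, had 1938, 2085, 466, 1825 and 1138 normalized counts, Dbp, an output factor, 1765, 1386, 384, 607 and 1596, and Ciart, a further repressor, 106, 103, 8.59, 37 and 73.8. All were lowest in water 3. Arntl, the activator BMAL1, ran the other way with 199, 168, 1116, 190.0 and 288, and Npas2, its partner, with 484, 256, 1144, 219.9 and 301. Nr1d1, which represses Arntl, followed neither group, at 1243, 882, 1486, 195 and 1971, lowest in water 4. The time of day of sampling was not given in the sources used here, and its part was not tested.

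**Figure D5:**
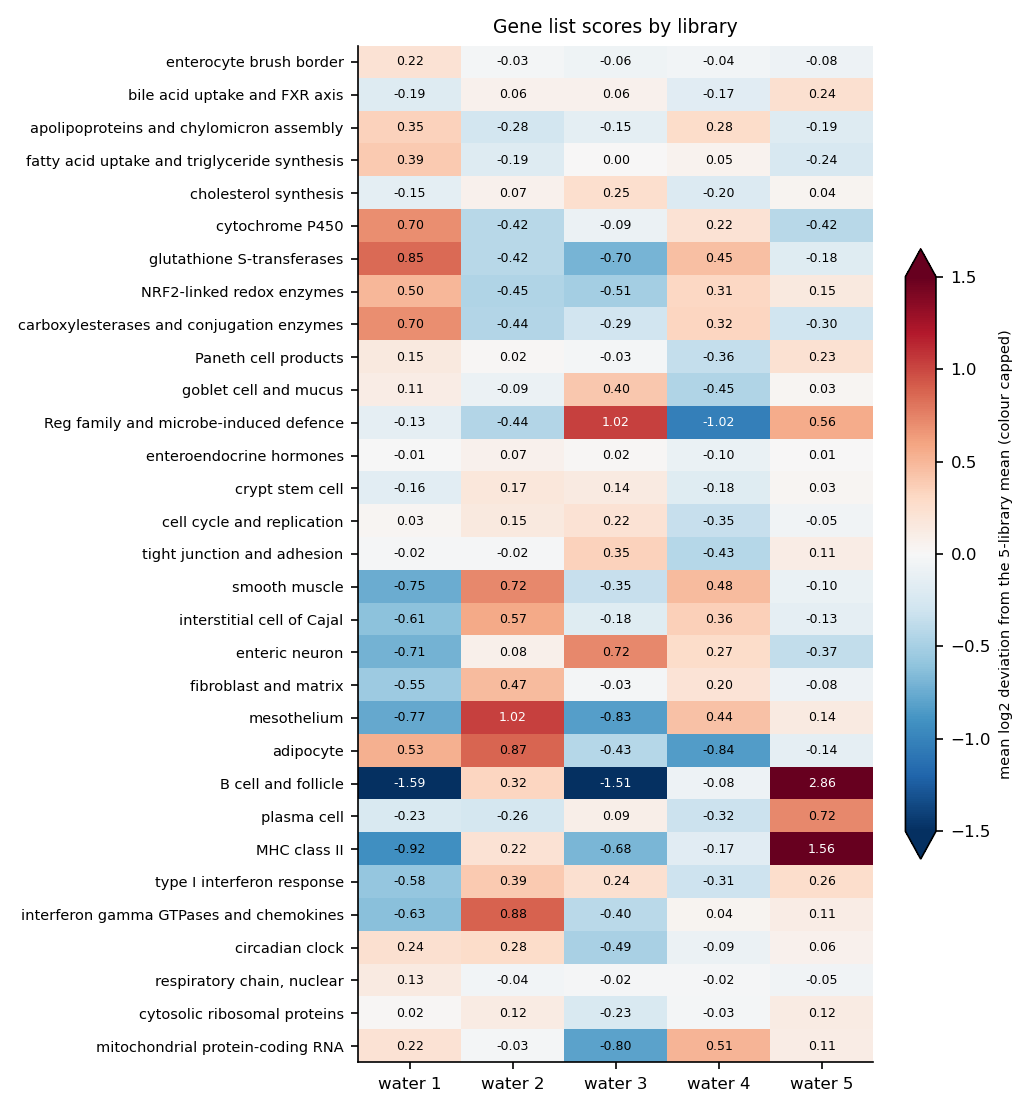
Mean deviation of 31 gene lists from their 5-library mean (log2 scale, members whose mean reached 50 normalized counts) in each water library. Red is above and blue below the mean. B cell genes reach 2.86 and MHC class II genes 1.56 in water 5, smooth muscle genes run from −0.75 in water 1 to 0.72 in water 2, and nuclear respiratory chain genes stay within −0.05 to 0.13.

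Single markers of pancreas and liver were low in most libraries, but the hepatocyte list as a whole was not near the floor. Pancreatic acinar genes held 0.000380 to 0.00110% of nuclear reads, and Prss2, a trypsinogen, had 0, 1.12, 1.07, 0 and 10.4 normalized counts. Alb, the serum albumin of hepatocytes, had 8.41, 4.49, 1.07, 75.3 and 8.68. The hepatocyte list of 8 genes held 0.0298%, 0.0241%, 0.0271%, 0.0223% and 0.0212% of nuclear reads. Of these genes 2 reached a mean of 50 normalized counts, both highest in water 1, and 1 of them had a 4-fold range. The haemoglobin gene Hbb-bs, from blood in the tissue, had 216, 623, 183, 239 and 412. Of colon genes, Car1, a carbonic anhydrase of the large bowel, had 4.8, 1.12, 4406, 0 and 0, high in water 3 and near 0 elsewhere, and the water channel gene Aqp8 had 0, 2.24, 67.7, 1.2 and 0. Car4, which both bowel parts can express, had 1874, 1334, 1498, 921 and 1264.

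Car1 was the single most variable gene, with an SD of 5.12 on the log2 scale. Slc6a14, an amino acid transporter, came next with 3.6, 1112, 4248, 5.97 and 429 normalized counts, high in water 2, water 3 and water 5 and near the floor in the other 2. Abca12, a lipid transporter, had 9.61, 44.9, 293, 0 and 72. Of the 15 most variable genes named by rule, 12 were immunoglobulin variable segments, so the 15 without them were named as well, after the data were seen. Beyond those already described they include Fcmr and Chst3, both highest in water 5, Cyp3a44, highest in water 3 at 8.41, 196, 614, 22.7 and 134, and Mbl2, highest in water 1 at 207, 2.24, 12.9, 47.8 and 38.2.

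Immunoglobulin variable segments differed from mouse to mouse as a class. All 38 of 202 segments that reached a mean of 50 normalized counts had a 4-fold range, and their median SD was 2.48. They passed that mean in part through 1 high library each, so the count describes them and is no comparison with other genes. The leading heavy-chain segment was not the same in all mice, with Ighv6-3 holding 38.8% of heavy-chain variable reads in water 1 and 45.9% in water 4, Ighv10-3 37.8% in water 2, and Ighv4-1 23.8% in water 3 and 29.1% in water 5. Ighv1-69 had 0, 0, 1014, 90.8 and 2.6 normalized counts and Igkv9-124, a κ light-chain segment, 257, 3.36, 2.15, 1552 and 6.08. Segments are similar to each other, so single values are uncertain.

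Ribosomal protein genes were mostly lowest in water 3, which did not stand apart in them as it did in mitochondrial rRNA. Of 79 cytosolic ribosomal protein genes, 57 were lowest in water 3 (57 with TMM, 48 as shares of nuclear reads), and 0 of 79 had a 4-fold range. The group held 1.5%, 1.76%, 1.33%, 1.57% and 1.73% of nuclear reads. Of all reads it held 0.747% in water 1, the lowest, and 0.907% in water 3. Neat1, a long noncoding RNA of nuclear paraspeckles, had 27316, 18959, 41173, 15718 and 18397 normalized counts, highest in water 3. Reads assigned to Lars2, the gene of the mitochondrial leucyl-tRNA synthetase, gave 17104, 2887, 1008, 6274 and 2557 normalized counts. The libraries had the same order for Lars2 as for Rn18s-rs5 and for the signal at miRNA genes. Which part of the Lars2 gene these reads came from was not tested, so they need not measure its messenger RNA. The low mitochondrial share of water 3, its high Reg3b, Saa1 and Car1, and its low Per2 stand in 1 library, and with 1 such mouse they cannot be told apart.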

How the data were processed

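The deposited table holds normalized counts per gene, here called a signal: read counts divided by 1 size factor per library, by the authors. DESeq2 1.28.0 and MultiQC 1.9 were tools and GRCm39 was the build, per the submitters' processing notes. How reads were aligned and counted, whether strand was used, what became of shared reads and which genes were annotated were not given in the sources used here. Only the 5 water columns were used, each tied to its sample by title and description, with 0 unmapped columns. Divided by what 1 read is worth in its library, 100% of the values lay within 0.0001 of a whole number. These recovered reads summed to 27349003 to 44342245 per library. Groups came from the labels.

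Shares are percentages of recovered reads, with exact 95% Clopper-Pearson intervals that cover counting error only. Gene class and exon length came from GENCODE M21 (build GRCm38), matched by gene identifier for 97.1% of 42989 genes and 99.4% of expressed genes. Spread is the SD of log2(normalized count + 1) over the 5 libraries, and the edgeR 4.0.16 dispersion was fitted to the recovered reads. No test was made, because 1 group gives no contrast. The search for genes with a 4-fold range was checked on simulated data. Their dispersion was set lower than the edgeR common dispersion fitted here, 0.0666. The check therefore covers the working of the search only. It does not show how many 4-fold genes the ordinary spread between mice would give. Python 3.11.15, pandas 2.3.3 and R 4.3.3 were used.

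The members and the 53 gene lists were chosen with earlier results of these data known. The naming rule took the 20 genes with the largest share of reads, the 20 highest per length, the 15 most variable (mean of at least 50 normalized counts) and 15 least variable (at least 500) apart from predicted gene models, the 5 largest noncoding genes, and up to 4 high members and the most variable member of each list, plus bile acid and marker genes. Per2, Arntl, Npas2, Hoxb9, Clca1, Igha, Fosb, Atf3, nuclear copies of mitochondrial genes, the remaining mitochondrial messenger RNAs and the 15 most variable genes other than immunoglobulin segments were added after their values were seen. Some genes of the rule are not reported here. Alternatives were other scales, denominators, pseudocounts, filters and scalings, and leaving out each library. The longest transcript as length and the removal of immunoglobulin segments were added after the data were seen.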

Additional observations from a re-analysis of the deposited data

Results flagged for a closer look

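Of 226 shares, counts and named genes examined, 30 had 1 library whose gap to its nearest neighbour was more than 0.71 of the range of all 5. Chance flags about 1 in 20 groups of values that were not picked by their spread. Many of the named genes were picked for a large SD in these same libraries, so the 30 cannot be set against that rate. Genes of 1 cell type are also not independent of each other. The library apart was water 3 in 12 cases, water 5 in 10, water 1 in 6 and water 4 in 2.

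Water 3 was low in mitochondrial RNA, with 30.2% of reads on mitochondrial rRNA (the next library 45.4%) and 31.9% on all mitochondrial genes (47.5%). It was high in the colon list at 0.0305% of nuclear reads (the next library 0.00895%), through Car1 with 4406 normalized counts (the next library 4.81) and Aqp8 with 67.7 (2.24). It was also high in the lipid transporter gene Abca12 at 293 (72), the amino acid transporter gene Slc6a14 at 4248 (1112), the acute-phase gene Saa1 at 3062 (655), the clock activators Arntl at 1116 (288) and Npas2 at 1144 (484), the claudin gene Cldn8 at 162 (44.3), and the immunoglobulin segment Ighv1-69 at 1014 (90.8).

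Water 5 was high in the B cell and follicle list at 0.0341% of nuclear reads, the next library having 0.00684%. The genes were Cd79a at 582 normalized counts (the next library 90.8), Cr2 at 891 (102), Cxcl13 at 224 (51.6), Cxcr5 at 306 (50.5), H2-Eb2 at 280.3 (51.6), Ighm at 1552 (425) and Ms4a1 at 618 (70.6). It was also high in the pancreas acinar list at 0.00110% (0.000533%) and in Prss2 at 10.4 (1.12).

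Water 1 was high in Fabp1 at 31251 normalized counts (the next library 9516), the glucosidase gene Mgam at 228707 (168376), the glucose transporter gene Slc2a2 at 3808 (1119), Reg3a at 1641 (839) and Mbl2 at 207 (47.8). It was low in the MHC class I presentation list at 0.2498% of nuclear reads (the next library 0.283%). Water 4 was high in Alb at 75.3 normalized counts (8.68) and in the κ light-chain segment Igkv9-124 at 1552 (257).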

How the results depend on the processing

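Each result was recomputed without each water library in turn. The mitochondrial rRNA share was then 42.2 to 46.7%, the mitochondrial protein-coding RNA share 2.00 to 2.27% and the nuclear protein-coding RNA share of nuclear reads 94.7 to 95%. The number of genes holding 50% of nuclear reads was 648 to 680.2, genes expressed 16718 to 16867 (in 3 of 4 libraries), the median spread between replicates 0.209 to 0.248 and the number of genes with a 4-fold range 352 to 416. The choice of scale moved the shares most. Per length, mitochondrial rRNA held 61.0% (57.1% with the longest transcript as length, added after the data were seen), mitochondrial protein-coding RNA 3.07% and nuclear protein-coding RNA 72.6% of nuclear RNA, while 147 genes held 50% of it. With mitochondrial rRNA left out of the denominator mitochondrial protein-coding RNA held 3.89%, and with all reads in it nuclear protein-coding RNA held 51.7%. The filter on low values moved the spread: with a mean of at least 10 the median was 0.295 and 1269 genes had a 4-fold range, and with a mean of at least 200 there were 210 such genes. With pseudocounts of 0.5 and 8 there were 491 and 401, with edgeR TMM scaling 461, as shares of nuclear reads 508, over nuclear protein-coding genes 378 and without immunoglobulin segments 440. Scaling to nuclear reads lowered the median gene by 0.25 in water 1 and by 0.06 to 0.10 in the other 4 (log2), and of 775 list entries 147 were then highest in water 1, against 226 under the authors' scaling. Leaving out 1 library moved the mean of 35 of 150 named genes and 2 of 53 list shares by over 1.5 times, most often water 1 (11 genes), water 3 (12) or water 5 (8). The colon list fell to 0.00717% without water 3 and the B cell list to 0.00465% without water 5. Leaving out 1 of 5 values cannot move their mean by 1 SD, so such a comparison was not used. No paired analysis was possible because there was 1 group and no test. Depth limits the genes near the floor of 3 reads, such as Gpbar1 and Prss2.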

Other observations

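Stress and handling genes were present in all 5 libraries. Genes of the unfolded protein response and chaperones of the endoplasmic reticulum held 0.43%, 0.337%, 0.329%, 0.327% and 0.423% of nuclear reads in water 1 to water 5, and 0 of 18 had a 4-fold range. Canx, a chaperone of glycoproteins, had 20450.3, 12925, 14924, 14985 and 16574 normalized counts. Heat shock and tissue handling genes held 0.114% ± 0.0171 (SD, n = 5). Hspa1b, an inducible chaperone, was the 1 of 10 with a 4-fold range, at 66.1, 152, 136, 117 and 278, and 0 had one without water 1 or without water 5. Of 17 immediate early genes with a mean of at least 50, 3 had a 4-fold range, Fosb, Egr1 and Atf3, and 0 without water 4. Egr1, a factor induced soon after a stimulus, had 154, 238, 281, 35.9 and 273, lowest in water 4.

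Nuclear receptors of retinoids, lipids and foreign compounds, listed with their partners, had a median SD of 0.20 on the log2 scale. The median was 0.24 over all genes examined, 0.19 at means of 1000 to 5000 and 0.23 at 5000 to 20000. The 0.20 is therefore no sign of steadiness. Nr1i3 was the 1 of 18 with a 4-fold range. Hnf4a, a factor that maintains enterocyte identity, had 14795, 14903, 18614, 16087 and 18258 normalized counts, and Vdr, the vitamin D receptor, 6609, 4601, 6261, 5396 and 4754. Rbp2, the retinol carrier of enterocytes, is in the same list and had 17193, 6230.4, 6786, 12502 and 7975, highest in water 1 and water 4. Tight junction and adhesion genes held 1.22% ± 0.15 of nuclear reads, led per length by Krt8 and Epcam. Cldn8, a claudin, was the 1 of 20 with a 4-fold range, at 38.4, 24.7, 162, 3.58 and 44.3, highest in water 3 and lowest in water 4.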
